A study of Mus musculus with 50 samples.

Results

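Iron handling in mouse spleen was followed through 8 genes after an injection of CpG oligodeoxynucleotides (ODN): the exporter Slc40a1, the importers Tfrc, Slc11a2 and Slc11a1, the ferritin subunits Fth1 and Ftl1, the heme-degrading enzyme Hmox1 and the hormone gene Hamp. The members were picked by gene symbol from 15312 named genes with a measured spot, and all 8 were measured, on 11 of the 30750 measured spots. Slc40a1 led the choice because earlier results of these arrays had shown its level to fall after CpG ODN and to fall less without tumor necrosis factor (TNF). Its differences between CpG ODN and the comparison groups, and between genotypes under CpG ODN, are therefore given as descriptions with no test.

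Whole spleens of female mice were measured on 50 two-colour arrays, 1 array per sample. BALB/c mice received 400 µg of a CpG ODN mixture and were examined after 0.5, 1, 3, 9, 24 or 72 h (n = 4 arrays at each time), received a control ODN mixture and were examined after 3 h (n = 4), or were untreated (n = 6). On the C57BL/6 background, TNF-KO mice, which lack TNF, and C57BL/6 control mice were examined 3 h after CpG ODN or untreated (n = 4 in each of the 4 groups). The labels give neither the mutant allele nor the age of the animals.

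Each value is the log2 ratio of spleen RNA to a common reference RNA pooled from mouse tissues and cell types, so 0 means that spleen and reference were alike and 1 unit is a doubling. Levels of different genes cannot be set against each other on this scale. In whole spleen, fewer cells of a type and less RNA per cell cannot be told apart. The mean of 6 B cell markers lay between 2.32 and 3.80 on every array and that of 3 T cell markers, those present on every array, between 1.68 and 3.67, so lymphocyte genes were high in all samples. Marker genes of the exocrine pancreas, which lies beside the spleen, averaged between 0.19 and 6.25 per array and differed widely within groups. The 4 CpG arrays of C57BL/6 control mice carry that treatment in their titles, while another label field calls them untreated. Tnf lay between 3.16 and 4.59 on these 4 arrays and between 0.58 and 0.78 on the 4 untreated control arrays. In TNF-KO spleen it lay between -0.45 and 0.43 after CpG ODN and between -0.61 and 0.09 in untreated mice.

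The injected sequences are shown because the CG dinucleotide, written in capitals, is the feature that sets the CpG mixture apart. Unmethylated CG dinucleotides are the ligand of Toll-like receptor 9, which B cells and dendritic cells hold in their endosomes.
CpG ODN 1555: gctagaCGttagCGt
CpG ODN 1466: tcaaCGttga
control ODN 1612: gctagatgttagCGt
control ODN 1471: tcaagcttga
Counted from 1 at the 5′ end, control ODN 1612 differs from CpG ODN 1555 by C7T and keeps 1 of its 2 CG dinucleotides. Control ODN 1471 differs from CpG ODN 1466 by C5G and G6C and holds no CG dinucleotide.

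Red pulp macrophages of the spleen take up aged red blood cells, break heme open with heme oxygenase 1 (Hmox1) and return the iron to plasma through ferroportin (Slc40a1), the only known iron exporter of mammalian cells. Hepcidin (Hamp), a peptide hormone made mainly by the liver, binds ferroportin and sends it to degradation. Cells take up transferrin-bound iron through transferrin receptor 1 (Tfrc), move it out of endosomes through Slc11a2 or, in phagocytes, Slc11a1, and store it in ferritin built of Fth1 and Ftl1 subunits. Inflammation is known to trap iron in macrophages.

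Slc40a1 was far lower at 3 and 9 h after CpG ODN than in untreated BALB/c spleen and lay near the untreated level at 24 h. At 3 h it measured 2.94, 2.67, 2.65 and 2.06 on the 4 CpG arrays, and at 9 h 3.11, 3.16, 3.78 and 3.93. The 6 untreated arrays had a lowest value of 4.82, a median of 5.26 and a highest of 5.55. No array of the 3 h or 9 h group reached any untreated array, and the 3 h and 9 h arrays did not overlap with each other either.

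The mean of Slc40a1 was 2.58 ± 0.37 at 3 h and 3.50 ± 0.42 at 9 h, against 5.24 ± 0.27 in untreated spleen (SD, n = 4, 4 and 6). On the log2 scale the differences were -2.65 ± 0.22 at 3 h and -1.74 ± 0.22 at 9 h (SE), or 6.30-fold and 3.34-fold lower. Of 15264 genes, 2 had a larger fall at 3 h and 12 at 9 h. These ranks come from contrasts that led to the choice of the gene.

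At the other times the groups overlapped. Slc40a1 averaged 5.45 ± 0.30 at 0.5 h, 4.96 ± 0.35 at 1 h, 5.30 ± 0.23 at 24 h and 5.40 ± 0.45 at 72 h, and the differences from untreated spleen were 0.22, -0.28, 0.07 and 0.16 with a common SE of 0.22. In order of level, the 3 h and 9 h groups stood apart at the low end. The 1 h, untreated, 24 h, 72 h, 0.5 h and control ODN groups followed, and the arrays of each group overlapped with those of its neighbours in that order. With arrays scaled to the same spread, the difference was -1.03 at 1 h, and those at 0.5 and 24 h turned to -0.05 and -0.30.

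**Figure D1:**
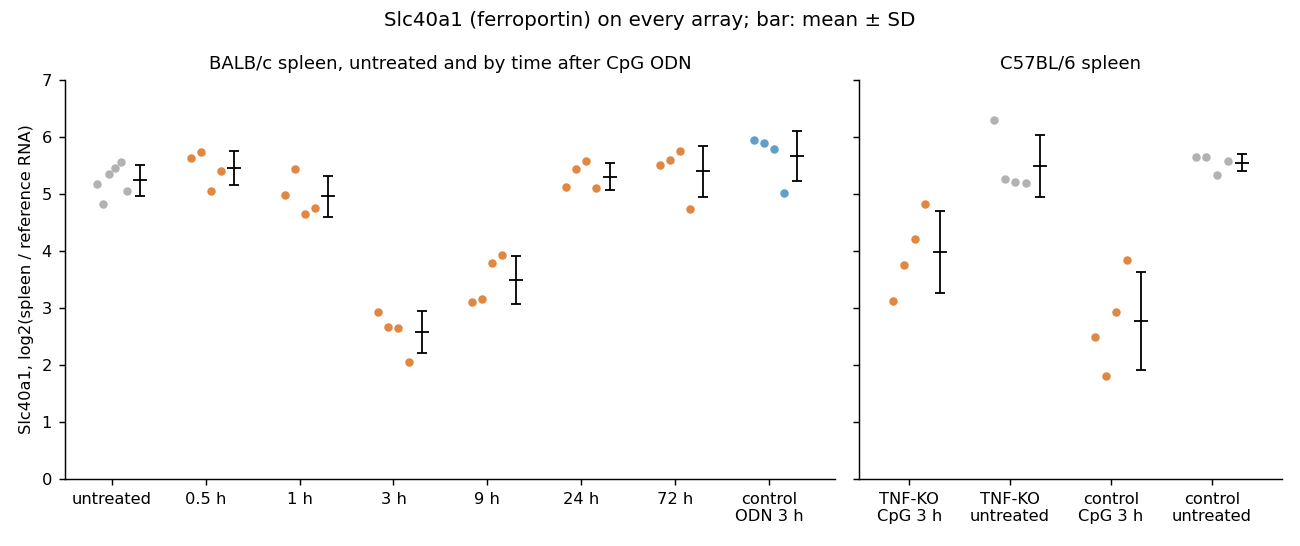
Slc40a1 on each of the 50 arrays as log2 ratio of spleen to reference RNA; points are arrays, and the bar beside them gives mean ± SD. In BALB/c spleen the arrays at 3 and 9 h after CpG ODN lie below 4 while all others lie above 4.6, and in C57BL/6 spleen the CpG arrays of TNF-KO mice lie below all untreated arrays and overlap with the CpG arrays of control mice.

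After control ODN, Slc40a1 was not called different from untreated spleen. It measured 5.94, 5.89, 5.79 and 5.01 on the 4 control ODN arrays, and the mean of 5.66 ± 0.44 (SD, n = 4) compared with 5.24 ± 0.27 in untreated spleen (n = 6). The difference of 0.42 ± 0.22 did not pass the limma test (adjusted p = 0.258, 95% interval -0.03 to 0.88), and it turned to -0.27 with arrays scaled to the same spread (adjusted p = 0.605). Set against control ODN at the same time, Slc40a1 after CpG ODN was 8.45-fold lower, a log2 difference of -3.08 ± 0.24, with no overlap between the groups. The control ODN arrays share no stretch of neighbouring array database numbers with the untreated arrays or the CpG arrays at 3 h. Treatment and stretch cannot be told apart in these comparisons.

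In C57BL/6 mice Slc40a1 was also lower 3 h after CpG ODN, and the fall was smaller in TNF-KO than in control spleen. TNF-KO spleen had 3.13, 3.75, 4.21 and 4.83 on its 4 CpG arrays and 6.30, 5.27, 5.20 and 5.19 on its 4 untreated arrays. Control spleen had 2.50, 1.82, 2.94 and 3.85 on its CpG arrays and 5.65, 5.64, 5.33 and 5.58 on its untreated arrays. In each genotype all CpG arrays lay below all untreated arrays, whereas the CpG arrays of the genotypes overlapped.

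The log2 difference of CpG from untreated spleen in Slc40a1 was -1.51 ± 0.38 in TNF-KO mice and -2.77 ± 0.38 in control mice (SE), or 2.84-fold and 6.84-fold lower. The fall without TNF was 54.3% of the control's on the log2 scale. After CpG ODN the level was higher in TNF-KO than in control spleen by 1.21 ± 0.38, and the responses differed by 1.27 ± 0.54. Both values come from contrasts that led to the choice of the gene. Without treatment, TNF-KO spleen averaged 5.49 ± 0.54 and control spleen 5.55 ± 0.15 (SD, n = 4 each). The difference was -0.06 ± 0.38 (limma adjusted p = 0.977, 95% interval -0.86 to 0.73), and 0.27 with arrays scaled to the same spread. This contrast did not itself lead to the choice, but its arrays entered the responses that did, so its test is not independent of the choice. Arrays carry database numbers that fall into 11 stretches. With these stretches as a fixed block the fall in TNF-KO mice was -1.06 and the difference of responses 1.81, and with arrays scaled to the same spread the difference of responses was 0.79.

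**Figure D2:**
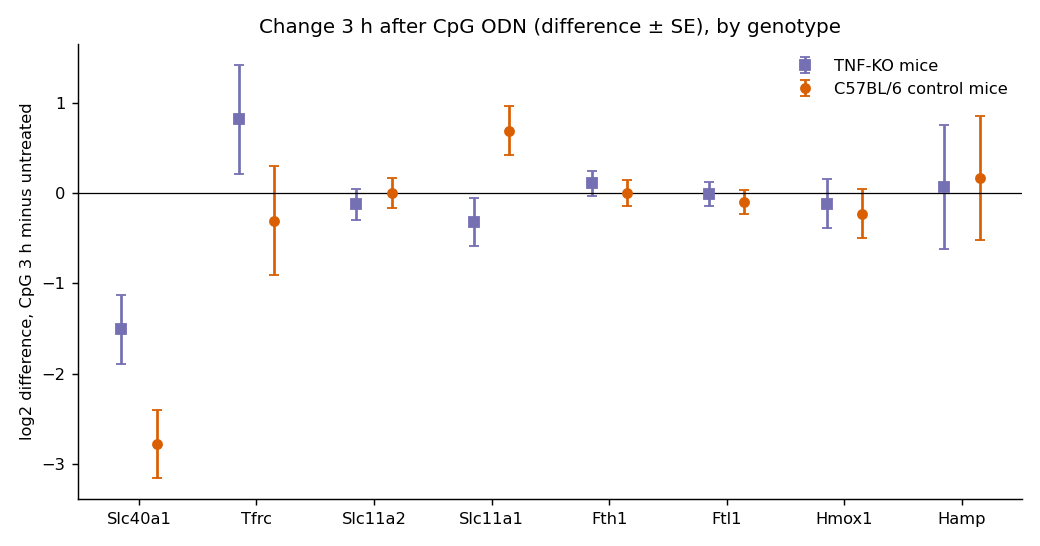
Log2 difference of CpG ODN at 3 h minus untreated for the 8 genes in TNF-KO mice (squares) and C57BL/6 control mice (circles), with bars of 1 SE. Slc40a1 is lower in both genotypes and closer to 0 in TNF-KO mice, and Slc11a1 lies below 0 in TNF-KO mice and above 0 in control mice.

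Genes with a pattern like that of Slc40a1 were ranked by Pearson correlation over the 12 group means, among 14825 genes. The closest were Rims3 (0.982), Tmem273 (0.978), Tmem231 (0.976), Hpgd (0.976) and Gpd1 (0.974). Rims3 encodes a protein of synaptic exocytosis, Hpgd the enzyme that inactivates prostaglandins and Gpd1 a glycerol-3-phosphate dehydrogenase. Group means share arrays across genes, so these values describe likeness and carry no p.

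Hpgd also belongs to a list of 10 genes known from red pulp macrophages, of which 9 were measured. Slc40a1 was chosen for its fall and Hpgd ranked close to it on these arrays, so tests of Hpgd are not independent of that choice. At 3 h in BALB/c mice 1 of the 9 fell and 1 rose. Hpgd had a difference of -2.11 ± 0.22 (limma adjusted p = 9.93e-09), and Spic, the transcription factor that red pulp macrophages need, one of 1.01 ± 0.24 (adjusted p = 0.00321). At 9 h Hpgd and Mrc1, the mannose receptor, fell, with differences of -1.51 ± 0.22 and -2.33 ± 0.36 (adjusted p = 9.26e-06 and 2.35e-05). Spic stayed higher by 1.15 ± 0.24 (adjusted p = 0.00118). Spic also differed from untreated spleen by 0.83, 1.34, 1.18 and 0.98 at 0.5, 1, 24 and 72 h, and the difference at 0.5 h did not pass (limma adjusted p = 0.28). After control ODN it differed by 0.74 ± 0.24, and in CpG against control ODN by 0.28 ± 0.26, and neither passed (limma adjusted p = 0.0833 and 0.501). Mrc1 lay above untreated spleen by 1.61 ± 0.36 at 1 h and by 1.06 ± 0.36 after control ODN, where it did not pass (limma adjusted p = 0.097). With array-number stretches as a fixed block the call of Spic at 3 h and those of Hpgd, Mrc1 and Spic at 9 h were lost (adjusted p = 0.228, 0.0522, 0.295 and 0.555). The list's median difference was -0.07 at 3 h and -0.54 at 9 h, against -0.03 and -0.02 over all genes. Of all genes 9.96% and 6.96% were called at these times. In CpG against control ODN 5 of the 9 fell and none rose, with a median of -0.84 against -0.08 and 18.3% of all genes called. Over the 7 markers present on every array, the mean ran from 2.06 to 2.50 at 3 h and from 1.66 to 2.29 at 9 h, against 2.38 to 2.86 in untreated spleen. These 7 leave out Spic and Mrc1. They include Hpgd, which averaged 6.87 in untreated spleen, 4.77 at 3 h and 5.37 at 9 h.

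In control C57BL/6 mice 5 of the 9 red pulp macrophage markers fell 3 h after CpG ODN and none rose, with a median of -0.89. Over the alternatives 2 to 5 fell, 3 without CpG replicate 2 or untreated replicate 1 or 4 and 2 without CpG replicate 1, and 1 rose with arrays scaled to the same spread. In TNF-KO mice limma called none (Hpgd and Mrc1 had an unadjusted p of 0.0123 and 0.0151), and the median was -0.28. The share of all genes called was 3.77% in TNF-KO and 7.7% in control mice. Hpgd differed by -1.0045 ± 0.36 in TNF-KO mice (adjusted p = 0.173) and by -2.02 ± 0.36 in control mice (adjusted p = 0.00147), and the difference of responses was 1.01 ± 0.51 (adjusted p = 0.637). The list mean, with Hpgd and without Spic and Mrc1, ran from 2.29 to 2.72 after CpG ODN and from 2.56 to 2.98 in untreated TNF-KO spleen, and from 1.68 to 2.46 after CpG ODN and from 2.70 to 3.25 in untreated control spleen. Its part in the Slc40a1 values was not tested. Slc48a1, the transporter that carries heme out of the phagolysosome, fell, with differences of -1.05 ± 0.23 at 3 h in BALB/c mice (adjusted p = 0.00155) and -1.09 ± 0.28 in control C57BL/6 mice (adjusted p = 0.0228). The call in control C57BL/6 mice was lost in 4 fits that left out 1 array, at adjusted p up to 0.0823 (without CpG replicate 1, 2 or 3 or untreated replicate 1). In TNF-KO mice its difference was -0.48 ± 0.28 (adjusted p = 0.501), and the difference of responses was 0.61 ± 0.40 (adjusted p = 0.757).

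**Figure D3:**
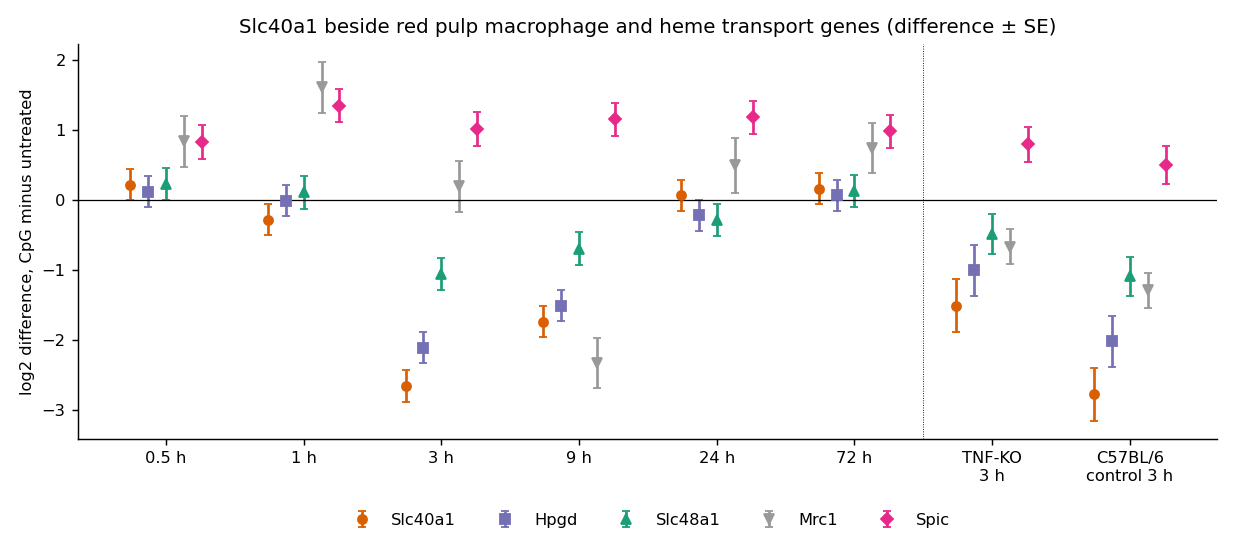
Log2 difference ± SE of CpG ODN minus untreated for Slc40a1, Hpgd, Slc48a1, Mrc1 and Spic at 6 times in BALB/c mice and at 3 h in TNF-KO and C57BL/6 control mice. Slc40a1, Hpgd and Slc48a1 lie below 0 at 3 and 9 h and near 0 at 24 and 72 h, whereas Spic lies above 0 in every comparison.

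Among the 93 limma tests that did not themselves lead to the choice of members, 2 passed an adjusted p under 0.05, namely Tfrc at 24 h and Hmox1 in CpG against control ODN. Slc40a1 is left out of these counts where the choice used the contrast, which left 7 or 8 members in each of 13 comparisons. Its 2 remaining tests, control ODN against untreated spleen and between untreated genotypes, share arrays with contrasts that led to the choice. The share of all genes called was 0.256% at 0.5 h, 3.3% at 1 h, 9.96% at 3 h, 6.96% at 9 h, 8.45% at 24 h and 10.6% at 72 h in BALB/c mice. It was 18.3% for CpG against control ODN and 1.42% for control ODN against untreated spleen. In C57BL/6 mice it was 3.77% in TNF-KO and 7.7% in control mice for CpG ODN, 0.595% between untreated genotypes, 0.368% between the genotypes after CpG ODN and 0.0268% for the difference of responses. The members were called in 1 of 7 tests at 24 h, in 1 of 7 against control ODN and in no other comparison. An unadjusted p under 0.05 was found in 14 of the 93 tests. Over all genes, such a p was found for 1199 of 14951 in the difference of responses, the fewest of the 13 comparisons. The most were 4826 of 15263 in CpG against control ODN.

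**Figure D4:**
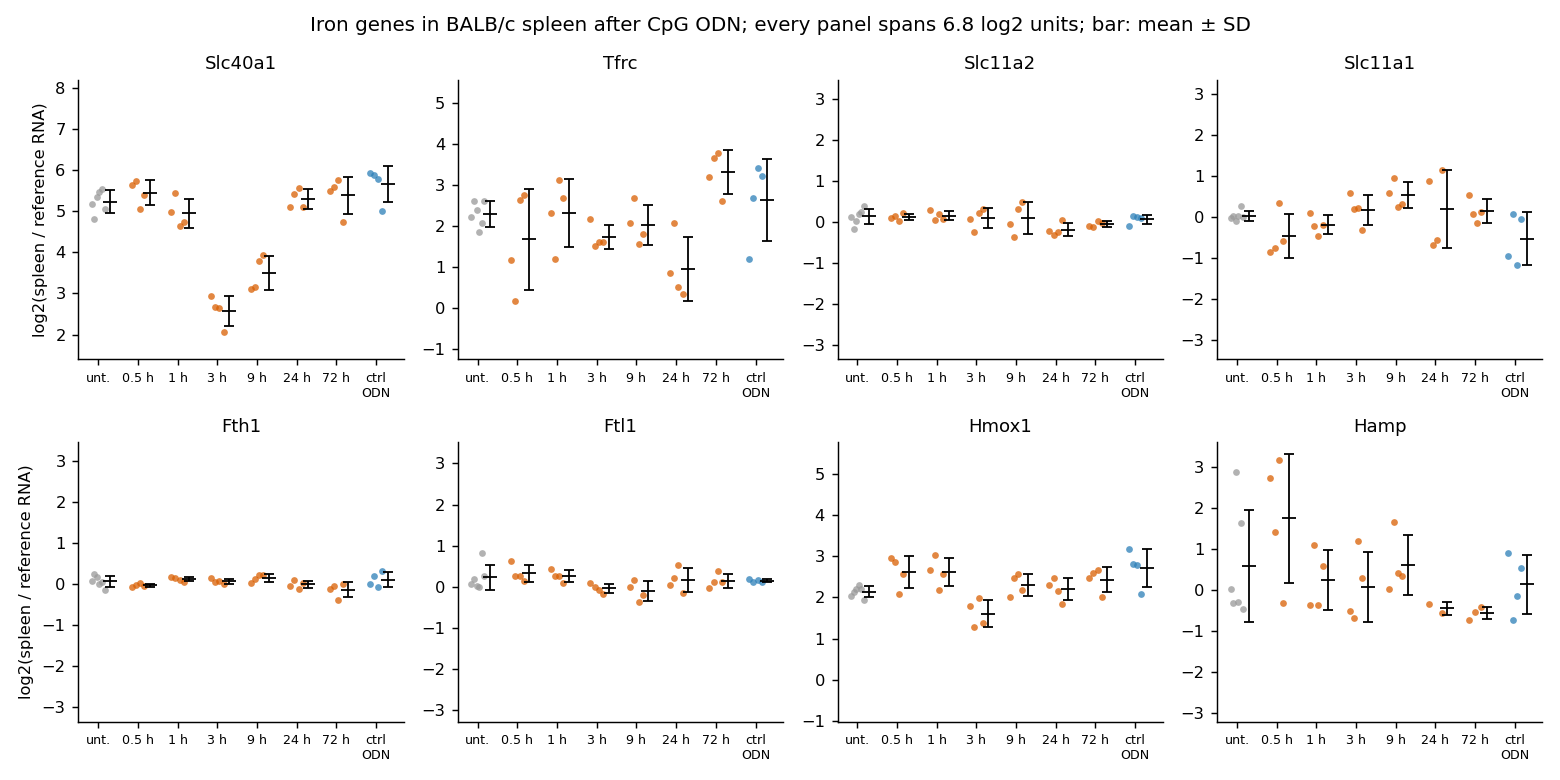
The 8 genes in BALB/c spleen, untreated (unt.), at 6 times after CpG ODN and 3 h after control ODN (ctrl ODN), as log2 ratio of spleen to reference RNA; points are arrays, bars are mean ± SD, and every panel spans 6.8 log2 units. Slc40a1 drops at 3 and 9 h, Tfrc is lowest at 24 h and highest at 72 h, the ferritin genes and Slc11a2 stay near 0, and Hamp scatters widely at 0.5 h and in untreated spleen.

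Hamp, the gene of the hormone that removes ferroportin, was measured on 45 arrays and passed no test. Its group means ran from -0.57 at 72 h to 1.74 at 0.5 h, with an SD of up to 1.57. At 0.5 h the 4 arrays had 2.73, 1.41, 3.16 and -0.32, against a lowest value of -0.46, a median of -0.14 and a highest of 2.86 in untreated spleen. The groups overlapped, and the difference of 1.17 ± 0.58 had a limma adjusted p of 0.511. At 3 h, when Slc40a1 was lowest, Hamp differed from untreated spleen by -0.50 ± 0.58 (adjusted p = 0.73), and by 0.69 with array-number stretches as a fixed block (adjusted p = 0.819).

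Upstream of hepcidin, Il6 rose by 3.31 ± 0.34 and Stat3 by 1.37 ± 0.33 at 3 h in BALB/c mice (limma adjusted p = 4.71e-09 and 0.00416). With array-number stretches as a fixed block Stat3 was no longer called (adjusted p = 0.289). Interleukin 6 is known to induce Hamp in hepatocytes through STAT3, whose recognition sequence can be written TTCNNNGAA. The 120 bases before the start of Hamp on chromosome 7 are shown because they hold 1 such match, in capitals, which begins 97 bases before the start.
Hamp, chr7:30944030-30944149, minus strand, RefSeq, GRCm38.p6: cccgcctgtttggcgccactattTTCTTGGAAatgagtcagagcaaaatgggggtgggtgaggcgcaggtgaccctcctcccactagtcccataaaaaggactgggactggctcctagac
The motif reads the same on both strands and occurs in 8.3% of 32851 promoter windows of 300 bases. Of the 5 members with a window in the same table, the other 4 (Fth1, Ftl1, Slc11a1 and Tfrc) hold none, and Slc40a1, Hmox1 and Slc11a2 have no entry. At 3 h in BALB/c mice 9.96% of all genes were called. The list of genes of the hepcidin pathway had a median of 0.04 against -0.03 over all genes. Of its 21 tested genes 6 rose and none fell. They included Bmp4, a bone morphogenetic protein (0.71 ± 0.20, adjusted p = 0.0179), whose call was lost with the mean of its probes (0.20), the replicate block, stretches as a fixed block and without CpG replicate 1 or 3 (adjusted p up to 0.816). Il6 also rose at 3 h in TNF-KO mice (2.23 ± 0.35, adjusted p = 6.43e-04) and in control mice (1.97 ± 0.35, adjusted p = 0.00154). Stat3 averaged 0.51 ± 0.67 after CpG ODN and 0.32 ± 0.18 in untreated TNF-KO spleen, and 1.09 ± 0.19 after CpG ODN and -0.60 ± 0.92 in untreated control spleen (SD, n = 4 each). It was called in control mice (1.68 ± 0.36, adjusted p = 0.00542) and not in TNF-KO mice (0.19 ± 0.36, adjusted p = 0.882), and the difference of responses, -1.50 ± 0.50, did not pass (adjusted p = 0.467).

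Tfrc, the importer of transferrin iron, was lowest at 24 h and highest at 72 h among the BALB/c groups. At 24 h it had 0.86, 2.08, 0.51 and 0.34, and at 72 h 3.20, 3.66, 3.78 and 2.61, against a lowest value of 1.85, a median of 2.30 and a highest of 2.62 in untreated spleen. At 24 h 3 of the 4 arrays lay below every untreated array, and at 72 h 3 of the 4 lay above. Tfrc fell at 24 h, by a difference of -1.34 ± 0.43 (limma adjusted p = 0.0452), while the difference of 1.02 ± 0.43 at 72 h did not pass (adjusted p = 0.113). The 72 h arrays share no array-number stretch with untreated arrays, so time and stretch cannot be told apart at 72 h. The call at 24 h was lost in 8 of 10 fits that left out 1 array, at adjusted p between 0.0568 and 0.176 (without 24 h replicate 1, 3 or 4 or untreated replicate 1, 2, 3, 5 or 6). It was also lost with array-number stretches as a fixed block, where the difference was -2.22 (adjusted p = 0.275).

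In C57BL/6 mice Tfrc differed between untreated TNF-KO and control spleen by an amount that did not pass the test over all arrays. The untreated arrays had -1.07, -1.18, -1.03 and 1.73 in TNF-KO mice and 3.24, 2.61, 0.82 and 1.21 in control mice. The CpG arrays had 0.75, 0.87, -0.58 and 0.68 in TNF-KO mice and 1.59, 1.88, 0.79 and 2.40 in control mice. In untreated spleen 3 of the 4 TNF-KO arrays lay below all control arrays. The difference between untreated genotypes was -2.36 ± 0.60 with a limma adjusted p of 0.0893. Without TNF-KO replicate 4 it was -3.06 (adjusted p = 0.00148), and with array-number stretches as a fixed or random block the adjusted p was 0.0236 and 0.0413. After CpG ODN the genotypes differed by -1.24 ± 0.60 (adjusted p = 0.407).

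Erythroid precursors, which need iron for hemoglobin, carry much of the transferrin receptor of hematopoietic tissue, and mouse spleen is an erythropoietic organ. Of 23 erythroid markers 18 were tested. At 24 h 4 fell and none rose, with a median of -0.67. At 72 h 5 rose and none fell, with a median of 0.83, and between untreated TNF-KO and control spleen 6 were lower and none higher, with a median of -2.42. The medians over all genes in these comparisons were 0.02, 0.03 and 0.03, and the shares of all genes called were 8.45%, 10.6% and 0.595%. The mean of the 16 markers present on every array ran from 2.83 to 3.44 at 24 h and from 3.83 to 5.01 at 72 h, against 3.62 to 4.298 in untreated BALB/c spleen. It ran from 1.77 to 4.22 in untreated TNF-KO spleen, against 4.10 to 5.05 in untreated control spleen, and the highest value in TNF-KO spleen belonged to replicate 4. The erythroid counts moved with single arrays. At 24 h none was called without 24 h replicate 3 or with array-number stretches as a fixed block, and 2 with the replicate block or without 24 h replicate 1 or untreated replicate 1, 2 or 6. At 72 h 1 was called without 72 h replicate 1 or 2, 3 without 72 h replicate 3 or untreated replicate 3 or 4, and 8 without 72 h replicate 4. Time and array-number stretch cannot be told apart at 72 h. The 72 h arrays share their stretch with the control ODN arrays, whose mean over the same 16 markers ran from 3.845 to 4.83, and with no untreated array. Between untreated genotypes none was called without TNF-KO replicate 1, 2 or 3, without control replicate 1 or 2, or with arrays scaled to the same spread. There 1 was lower without control replicate 4, 2 with the mean of probes, 11 with the replicate block or stretches as a block, and 15 lower with 1 higher without TNF-KO replicate 4, while the median stayed between -3.04 and -1.75.

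Proliferation markers moved in part with Tfrc as well. Of 19 tested, none was called at 24 h (median 0.03), 2 rose and none fell at 72 h (median 0.72), and none was called between untreated TNF-KO and control spleen (median -0.67). Over all genes 10.6% were called at 72 h, where time and array-number stretch cannot be told apart. The mean of the 18 markers present on every array ran from -0.27 to 0.32 at 24 h and from 0.38 to 1.09 at 72 h, against -0.19 to 0.26 in untreated BALB/c spleen, and from -1.42 to -0.08 in untreated TNF-KO against -0.54 to 0.09 in untreated control spleen. The part of the erythroid and proliferation markers in the Tfrc values was not tested.

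The genes most like Tfrc over the 12 group means were Klf1 (r = 0.983), the erythroid Krüppel-like factor, Cldn13 (0.976), a claudin, and Nusap1 (0.975), a spindle protein of dividing cells. Klf1 is 1 of the 23 erythroid markers. Slc25a37, the mitochondrial iron importer mitoferrin 1, fell at 24 h (-1.72 ± 0.34, limma adjusted p = 0.00112) and was lower in untreated TNF-KO than in control spleen (-2.39 ± 0.51, adjusted p = 0.0449). Fech, which inserts iron into heme, was lower in the same comparison (-2.31 ± 0.45, adjusted p = 0.0342). Between untreated genotypes Slc25a37 and Fech lost their calls in 8 of 15 alternatives each, at adjusted p up to 0.179 and 0.141, among them the fits without TNF-KO replicate 1, 2 or 3 or control replicate 1, 2 or 4. At 24 h Slc25a37 lost its call with array-number stretches as a fixed block (adjusted p = 0.185). Tfr2, the second transferrin receptor, rose by 1.08 ± 0.26 at 72 h (adjusted p = 0.00874, and 0.0608 without 72 h replicate 3). Time and stretch cannot be told apart in that comparison.

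Slc11a2, which moves iron out of endosomes, stayed between -0.41 and 0.49 on all 50 arrays, and its group means between -0.18 and 0.15. None of its 13 tests passed, and the lowest limma adjusted p was 0.162 for the difference of -0.32 ± 0.14 at 24 h, with a 95% interval of -0.61 to -0.03. With array-number stretches as a fixed block that difference was 0.20 (adjusted p = 0.827). Slc11a1, the phagosomal metal transporter of macrophages, was measured by 4 spots that disagreed. BALB/c and C57BL/6 mice both carry an Slc11a1 allele known to impair the protein. Over the arrays, spots 2 and 3 correlated at 0.809, and the other pairs between 0.037 and 0.197.

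At 9 h in BALB/c mice the 4 spots of Slc11a1 differed from untreated spleen by 0.20, 1.15, 0.50 and -0.19. Spots 3 and 4 had a value on all 50 arrays and spots 1 and 2 on 48, and the third, listed before the fourth, stands for the gene. It differed by -0.32 ± 0.27 after CpG ODN in TNF-KO mice and by 0.69 ± 0.27 in control mice, and neither passed (limma adjusted p = 0.676 and 0.134). The difference of responses was -1.01 ± 0.38 (unadjusted p = 0.0159, adjusted p = 0.504). The other spots gave -1.44, -0.72 and 0.11 for it.

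The ferritin genes stayed within a narrow range and passed no test. Fth1, the heavy subunit with ferroxidase activity, had group means between -0.14 and 0.15, and no array left the range from -0.40 to 0.31. The largest of its differences was -0.21 ± 0.11 at 72 h (limma adjusted p = 0.213). Ftl1, the light subunit, had group means between -0.11 and 0.33. Its largest difference was -0.33 ± 0.15 at 9 h (adjusted p = 0.234), with a 95% interval of -0.64 to -0.02. At 3 h, when Slc40a1 was lowest, the 95% interval of the difference from untreated BALB/c spleen was -0.22 to 0.22 for Fth1 and -0.57 to 0.04 for Ftl1. Ferritin is known to be regulated mainly at translation, which these arrays do not measure.

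Hmox1, which opens heme and frees its iron, fell in CpG against control ODN at 3 h. It had 1.78, 1.29, 1.99 and 1.37 on the CpG arrays and 3.17, 2.82, 2.80 and 2.09 on the control ODN arrays, with no overlap. The means were 1.61 ± 0.33 and 2.72 ± 0.46 (SD, n = 4 each), and the difference was -1.11 ± 0.22, or 2.16-fold lower (limma adjusted p = 0.000472). All 14 alternatives run kept this call, at adjusted p between 4.9e-05 and 0.0107. Array-number stretches as a fixed block could not be run here, since the control ODN arrays share no stretch with the CpG arrays at 3 h. Stretch and treatment cannot be told apart in this comparison.

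Macrophage and B cell markers differed between the same arrays. In CpG against control ODN 5 of the 9 red pulp macrophage markers fell and none rose (median -0.84), 5 of 10 monocyte and macrophage markers fell and 1 rose (median -0.57), and 3 of 6 B cell markers fell and none rose (median -0.76), against a median of -0.08 over all genes. The share of all genes called was 18.3%. Of the red pulp markers 3 fell without CpG replicate 1 or control ODN replicate 1 or 2 and 2 without control ODN replicate 3. With arrays scaled to the same spread 3 of them fell and 1 rose, 3 monocyte and macrophage markers fell and 2 rose, and 1 B cell marker fell. The red pulp list mean, with Hpgd and without Spic and Mrc1, ran from 2.06 to 2.50 after CpG ODN and from 2.68 to 3.41 after control ODN. The monocyte and macrophage mean ran from 2.21 to 2.30 after CpG ODN and from 2.11 to 2.79 after control ODN, and the B cell mean from 2.64 to 2.94 after CpG ODN and from 3.00 to 3.76 after control ODN. Their part in the Hmox1 values was not tested.

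Against untreated spleen, whose 6 arrays had a lowest Hmox1 value of 1.95, a median of 2.17 and a highest of 2.31, neither mixture passed the test. The difference was -0.53 ± 0.20 after CpG ODN (adjusted p = 0.0955) and 0.58 ± 0.20 after control ODN (adjusted p = 0.0985). Both comparisons share the CpG or control ODN arrays with the one that was called. Without control ODN replicate 4 the difference of control ODN from untreated spleen was 0.79 (adjusted p = 0.012). At 0.5 and 1 h Hmox1 differed by 0.48 ± 0.20 each (adjusted p = 0.51 and 0.213). In C57BL/6 mice the CpG difference was -0.12 ± 0.27 in TNF-KO and -0.23 ± 0.27 in control mice (adjusted p = 0.907 and 0.693). The genes most like Hmox1 over the group means were Man1b1 (r = 0.938), Asb2 (0.933) and Tial1 (0.932).

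Members also varied within groups, and this variation was set against marker lists as deviations of each array from its group mean, with 32 relations of 8 genes and 4 lists. This comparison was chosen after the data were seen. Permutation tests within groups (100000 permutations, two-sided) left 6 relations at an adjusted p under 0.05. Tfrc followed the erythroid markers (r = 0.823, rho = 0.813) and the proliferation markers (r = 0.909, rho = 0.899), each with p = 1e-05, the smallest the permutations can give, and an adjusted p of 0.00011. In BALB/c and C57BL/6 arrays apart, r was 0.759 and 0.888 for the erythroid list and 0.926 and 0.911 for the proliferation list. Without the 2 arrays farthest on the list, r was 0.77 and 0.884.

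Slc40a1 and Hmox1 followed the red pulp macrophage markers, with r = 0.548 and rho = 0.498 for Slc40a1 (permutation p = 0.0013, adjusted 0.0082) and r = 0.615 and rho = 0.49 for Hmox1 (p = 8e-05, adjusted 0.00064). Without the 2 farthest arrays r was 0.474 and 0.546. In BALB/c and C57BL/6 arrays apart it was 0.64 and 0.475 for Slc40a1 and 0.671 and 0.541 for Hmox1. Within groups and array-number stretches, over 34 arrays, it was 0.823 and 0.685. The list mean holds the 7 markers present on every array, with Hpgd and without Spic and Mrc1. Hpgd ranked close to Slc40a1 on these arrays, and Slc40a1 was itself chosen on them. The test of Slc40a1 is therefore not independent of that choice. Hamp followed the pancreas markers (r = 0.637, rho = 0.672, permutation p = 1e-05, adjusted 0.00011, 45 arrays), with 0.689 in BALB/c, 0.529 in C57BL/6 and 0.576 without the 2 farthest arrays. Hmox1 and the pancreas markers had r = 0.371 and rho = 0.413 (permutation p = 0.0091, adjusted 0.048). The others did not pass, among them every relation of Fth1, Ftl1, Slc11a1 and Slc11a2.

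**Figure D5:**
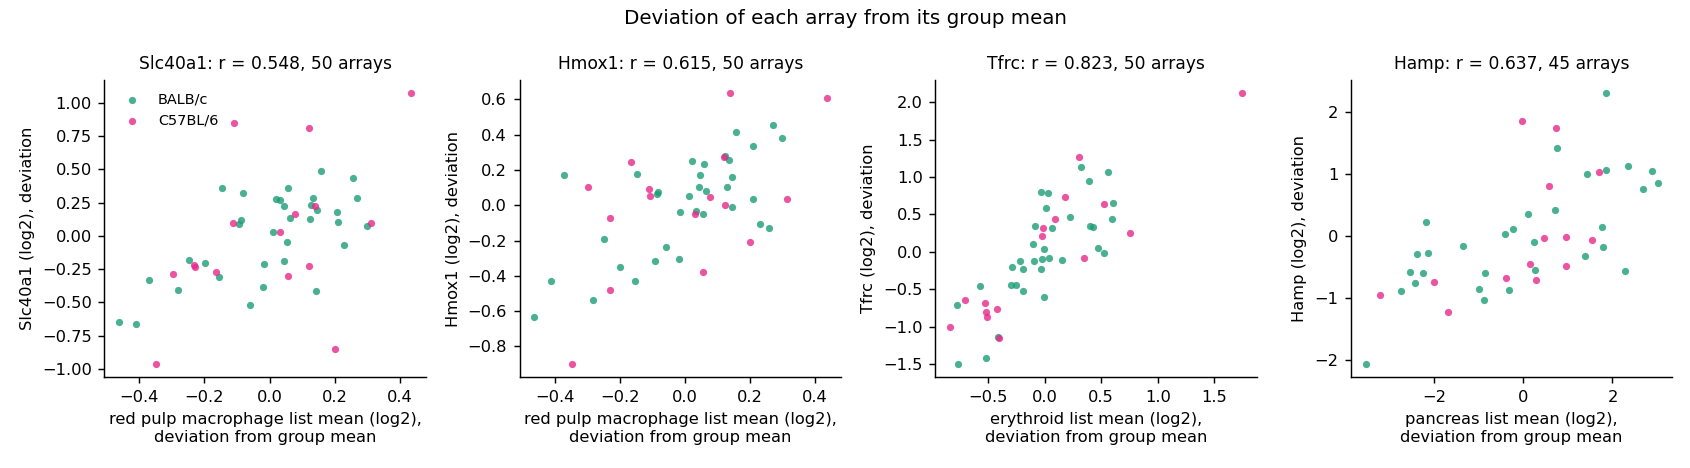
Deviation of each array from its group mean for Slc40a1 and Hmox1 against the red pulp macrophage markers, Tfrc against the erythroid markers and Hamp against the pancreas markers, all on the log2 scale; points are arrays, coloured by strain. Pearson r is 0.548, 0.615, 0.823 and 0.637, and in each panel arrays above their group mean on the list tend to lie above it for the gene.

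Further genes that move iron, heme or transferrin were read from lists drawn up by function. Of 20 tested genes of iron transport and reduction, 4 rose and 1 fell at 3 h in BALB/c mice (median -0.12 against -0.03 over all genes), and 3 rose and 4 fell in CpG against control ODN (median -0.22 against -0.08). In these comparisons 9.96% and 18.3% of all genes were called. Steap1, a member of the STEAP protein family, rose by 0.71 ± 0.16 at 3 h (limma adjusted p = 0.0023). Slc39a14, an importer of iron that is not bound to transferrin, rose by 0.53 ± 0.15 at 3 h (adjusted p = 0.0181). Trf, transferrin itself, fell at 9 h (-1.58 ± 0.30, adjusted p = 3.85e-04). Ncoa4, the receptor that delivers ferritin to lysosomes, also fell at 9 h (-0.62 ± 0.20, adjusted p = 0.0484). The Ncoa4 call was lost in 11 of 17 alternatives, 7 of them fits without 1 array, at adjusted p up to 0.449, and that of Slc39a14 in 5 of 17 (up to 0.267), among them those without CpG replicate 2 or untreated replicate 5. With array-number stretches as a fixed block Trf differed by -0.46 (adjusted p = 0.945) and Steap1 by 0.38 (adjusted p = 0.513), and Steap1 was also not called with arrays scaled to the same spread (adjusted p = 0.256).

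Secreted proteins that bind iron, heme or hemoglobin mostly rose where they were called, with 3 of 7 higher and none lower at 3 h (median -0.09) and 3 higher and 1 lower at 9 h (median 0.15), against medians of -0.03 and -0.02 over all genes. At these times 9.96% and 6.96% of all genes were called. Lcn2, which binds bacterial siderophores, rose by 2.64 ± 0.37 at 3 h and 3.34 ± 0.37 at 9 h (limma adjusted p = 2.16e-06 and 3.29e-08). At 3 h in C57BL/6 mice it rose by 1.90 ± 0.37 in TNF-KO and 2.22 ± 0.37 in control mice (adjusted p = 0.00357 and 6.61e-04). Hp, haptoglobin, rose by 1.66 ± 0.29 at 3 h after CpG ODN and by 1.80 ± 0.29 after control ODN (adjusted p = 1.08e-04 and 0.00609). The call after control ODN was lost with arrays scaled to the same spread (adjusted p = 0.0713), with the replicate block (0.0792) and without control ODN replicate 1 (0.156), and that of Lcn2 in TNF-KO mice with array-number stretches as a fixed block (0.0608). Neutrophils carry both proteins in their granules. The mean of 11 neutrophil markers, from a list that includes Lcn2, ran from 2.69 to 3.08 at 3 h and from 2.99 to 3.45 at 9 h after CpG ODN. It ran from 2.35 to 3.67 at 3 h after control ODN and from 1.74 to 2.70 in untreated spleen. The part of neutrophils in the Lcn2 and Hp values was not tested.

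Among 10 genes of heme and hemoglobin recycling, 2 rose and 1 fell at 3 h, and 4 rose and none fell at 24 h, with medians of 0.05 and 0.32 against -0.03 and 0.02 over all genes. The shares of all genes called were 9.96% and 8.45%. At 24 h Blvra, the biliverdin reductase that acts after heme oxygenase, rose by 1.54 ± 0.18 (limma adjusted p = 2.81e-07) and Hmox2, the constitutive heme oxygenase, by 0.91 ± 0.22 (adjusted p = 0.00767, and 0.0842 without 24 h replicate 3). At 3 h, when 9.96% of all genes were called, 1 of 8 genes of iron sensing rose. It was Hif1a, the hypoxia-inducible factor (1.00 ± 0.17, adjusted p = 8.46e-05). Aco1 and Ireb2 encode the iron regulatory proteins that bind Tfrc, ferritin and ferroportin transcripts. In CpG against control ODN, where 18.3% of all genes were called, 1 of the 8 rose and 3 fell (median -0.34 against -0.08). None fell against untreated spleen at 3 h (median 0.08 against -0.03). Aco1 was 1 of the 3 (-0.74 ± 0.22, adjusted p = 0.0165), and its call was lost without control ODN replicate 1 or 3 (adjusted p = 0.0777 and 0.0625).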

How the data were processed

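Groups follow the array titles. Per the series text and labels, the authors subtracted background, removed flagged spots and spots with both signals under 100, made log2 ratios of spleen (Cy5) over reference (Cy3), applied lowess within each array and kept genes present on over 70% of arrays, with BRB ArrayTools and mAdb. The deposited log2 values hold 36607 probes, 30750 with values. Intensities were not used here, so signal over background is unknown. The 0.5 h arrays list their channels in another order with the same dyes, and their lowest correlation with other arrays was 0.752, so no sign was turned. No build is given in the sources used here.

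Probes were named through the platform annotation and RefSeq (26926 with 1 symbol, 203 with several, left out). The probe with most values stood for a gene, and the first listed where probes tied. Arrays were centred on their median and tested with limma 3.58.1 (R 4.3.3, lmFit and eBayes), in 1 fit of 34 BALB/c arrays (15264 genes) and 1 of 16 C57BL/6 arrays (14951 genes), with Benjamini-Hochberg adjustment over all genes of a comparison and a threshold of 0.05. The series text speaks of 4 independent experiments per time point, and the labels do not name animals, so a p-value reflects array-to-array spread, which may be technical. The number of arrays limits the precision. Fits were tested on simulated data. Relations used scipy 1.17.1.

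The members, the gene lists and the tests were chosen with earlier results of these data known. Named list genes had the smallest adjusted p of their list, up to 3 in a comparison. Alternatives were no centring, equal spread, complete probes, mean of probes, replicate numbers as a block, stretches of neighbouring database numbers of the arrays (11 stretches, split at gaps over 10) as a fixed or random block, and leaving out each array. Reading them for listed genes and list counts was added after the data were seen. The database numbers mark the order of entry, not a known hybridization day. Replicate numbers are not known to pair the arrays and entered only the alternative fit that used them as a block.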

Additional observations from a re-analysis of the deposited data

Results flagged for a closer look

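In 124 combinations of spot and group, 11 had 1 array far from the others by Dixon's test. Chance flags about 1 in 20. For Slc40a1 these were control ODN replicate 4 at 5.01 (others 5.79 to 5.94) and untreated TNF-KO replicate 1 at 6.30 (others 5.19 to 5.27). For Tfrc they were BALB/c CpG 3 h replicate 1 at 2.17 (others 1.52 to 1.61), TNF-KO CpG replicate 3 at -0.58 (others 0.68 to 0.87) and untreated TNF-KO replicate 4 at 1.73 (others -1.18 to -1.03). The last of these is also the untreated TNF-KO array with the highest erythroid marker mean, 4.22. Ftl1 was 0.82 on untreated BALB/c replicate 5 (others 0.00 to 0.26), and Hamp was 2.31 on TNF-KO CpG replicate 1 (others -0.26 to -0.01).

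The remaining 4 concern single spots of Slc11a1. Spot 2 was -0.33 on TNF-KO CpG replicate 1 (others 1.07 to 1.34) and -0.53 on untreated C57BL/6 control replicate 1 (others 1.05 to 1.28). Spot 3 was 0.26 on untreated BALB/c replicate 5 (others -0.10 to 0.02), and spot 4 was -0.61 on control ODN replicate 3 (others -0.06 to 0.06).

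In 136 pairs of effects, 3 had every array of 1 group above the untreated mean and every array of the other below it. Tfrc differed from untreated spleen by 1.02 at 72 h, against -0.56 at 3 h and -1.34 at 24 h. Hmox1 differed by -0.53 at 3 h and by 0.48 at 1 h. These differences between times were not tested.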

How the results depend on the processing

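Every Slc40a1 difference of CpG ODN at 3 and 9 h, against control ODN and in C57BL/6 mice kept its direction under all alternatives run: -2.77 to -2.46 at 3 h, -1.92 to -1.61 at 9 h, -3.30 to -2.42 against control ODN, -1.79 to -1.06 in TNF-KO and -3.13 to -2.45 in control mice, and 0.79 to 1.81 for the difference of responses. Against control ODN the fixed block of stretches could not be run. Of the 93 member tests, 46 changed sign in at least 1 alternative, in 124 of 1516 fits, and none of these 124 passed the threshold. Among the tests named in the text, Slc40a1 turned to -0.27 for control ODN and to 0.27 between untreated genotypes with equal spread, and ran from -0.332 to 0.039 between these genotypes when 1 array was left out, above 0 without TNF-KO replicate 2, 3 or 4. Fth1 at 3 h (0.002) was -0.054 with the replicate block, -0.073 with fixed stretches and 0 to -0.04 in 4 fits without 1 array. With fixed stretches Hamp at 3 h was 0.69, Slc11a2 at 24 h 0.198 and Hmox1 in TNF-KO mice 0.09. Leaving out 1 array gave -0.331 to 0.04 for Hmox1 in TNF-KO and -0.431 to 0.07 in control mice, above 0 in both without CpG replicate 2. The causes were not tested. Of the 42 calls of listed genes named in the text, 17 held under every alternative run and 25 were lost in at least 1. Over the alternatives the called counts of lists ran from 1 to 4 higher for iron transport and from 1 to 6 higher for the hepcidin pathway at 3 h, from 2 to 5 higher for heme recycling, 0 to 4 lower for mitochondrial iron and 0 to 4 higher for NRF2 targets at 24 h, and from 0 to 5 higher for mitochondrial iron at 72 h.

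The replicate block ended the call of Tfrc at 24 h (adjusted p = 0.113) and brought Tfrc between untreated genotypes past the threshold (adjusted p = 0.0367). Same-numbered arrays of different groups correlated at a median of 0.049 in BALB/c and 0.096 in C57BL/6, against -0.031 and -0.048 for arrays with other numbers. Of the arrays, 13 of 34 and 7 of 16 correlated best with their own number. Whether the numbers pair the arrays is not known, and the main fits did not use them. Leaving out control ODN replicate 1 brought Tfrc in CpG against control ODN past the threshold (-1.37, adjusted p = 0.0479).

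Counts of called genes moved by over 1.5 times as follows, with the reported count in brackets. With equal spread they were 299 at 1 h (503), 0 for control ODN (216) and 23 between untreated genotypes (89). With the replicate block they were 330 at 1 h, 989 at 72 h (1616), 0 for control ODN and 158 between untreated genotypes. The mean of probes gave 135 for control ODN. Stretches as a fixed block gave 658 at 3 h (1520), 185 at 9 h (1062), 160 at 24 h (1290), 350 in TNF-KO mice (564), 230 between untreated genotypes, 25 between CpG genotypes (55) and 1 for the difference of responses (4). As a random block they gave 134 for control ODN, 171 between untreated and 88 between CpG genotypes and 7 for the difference of responses. For 72 h, control ODN and CpG against control ODN in BALB/c mice the fixed block could not be estimated, since the groups compared share no stretch.

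Leaving out 1 array gave 21 to 50 called genes at 0.5 h (39), 287 to 558 at 1 h, 1212 to 1424 at 3 h, 775 to 1039 at 9 h, 605 to 2194 at 24 h (without replicates 3 and 4) and 678 to 2546 at 72 h (without replicates 3 and 4). It gave 0 (without control ODN replicate 1) to 2127 (without replicate 4) for control ODN and 1623 to 3543 for CpG against control ODN (2790, without control ODN replicates 3 and 4). It gave 353 to 696 in TNF-KO and 766 to 1123 in control mice (1151), 2 to 379 between untreated genotypes (without TNF-KO replicates 3 and 4), 19 to 100 between CpG genotypes and 2 to 8 for the difference of responses. Spots dim in both channels had been removed before deposit, and Hamp had a value on 2 of 4 arrays at 24 h and 3 of 4 at 72 h.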

Other observations

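NRF2 is a transcription factor of oxidative stress that also drives Hmox1, and 11 of its listed targets could be tested. At 3 h 2 rose and none fell in BALB/c mice, with a median of 0.00 against -0.03 over all genes: Txnrd1, thioredoxin reductase, by 0.99 ± 0.17 and Slc7a11, the cystine importer, by 0.95 ± 0.17 (limma adjusted p = 4.78e-05 and 8.87e-05). In TNF-KO mice Txnrd1 rose by 0.84 ± 0.15 and Gsr, glutathione reductase, by 1.23 ± 0.28 (adjusted p = 0.00207 and 0.0167). In control mice Slc7a11 rose by 1.52 ± 0.22 and Txnrd1 by 0.96 ± 0.15 (adjusted p = 1.87e-04 and 4.54e-04). At 24 h 3 of the 11 rose, among them Gsr (0.95 ± 0.19, adjusted p = 0.00124), with a median of 0.25 against 0.02. In BALB/c mice 9.96% of all genes were called at 3 h and 8.45% at 24 h. With array-number stretches as a fixed block the calls of Slc7a11 at 3 h in BALB/c mice and of Gsr in TNF-KO mice and at 24 h were lost (adjusted p = 0.0648, 0.128 and 0.291), and that of Gsr in TNF-KO mice also without untreated replicate 1 or 3 or CpG replicate 1 (up to 0.0753).

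Of 12 tested genes of mitochondrial iron, 1 rose and 3 fell at 24 h and 3 rose and none fell at 72 h, with medians of -0.18 and 0.50. The shares of all genes called were 8.45% and 10.6%. Isca1, an iron-sulfur cluster assembly protein, fell at 24 h (-0.97 ± 0.26, limma adjusted p = 0.0177). At 72 h Sfxn1, a mitochondrial serine transporter, and Abcb10, a mitochondrial transporter of erythroid cells, rose by 0.68 ± 0.19 and 1.11 ± 0.37 (adjusted p = 0.0236 and 0.0489). Isca1 lost its call with the replicate block, stretches as a fixed block and without 24 h replicate 3 (adjusted p up to 0.281), Sfxn1 with the replicate block and without 72 h replicate 3 (up to 0.15), and Abcb10 in 8 of 16 alternatives (up to 0.171), among them those without 72 h replicate 1, 2 or 3 or untreated replicate 3, 4 or 5. Erythroid markers lay low and high at the same times, as given above, and their part was not tested. Time and array-number stretch cannot be told apart at 72 h.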
